A study of Mus musculus with 48 samples.

Results

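Medullary sinus macrophages (MSM) sorted from tumor-draining lymph nodes (TDLN) were compared with MSM from nodes labelled only as lymph node (LN), all of wild type genotype and treated with PBS. The labels set the comparison: 3 libraries of MSM, TDLN, PBS against 3 of MSM, LN, PBS, which are 6 of the 48 libraries of the series. The series measured polyA RNA in MSM, in subcapsular sinus macrophages (SSM) and in dendritic cells from digested nodes, after PBS or cisplatin, to ask how node macrophages bear on cancer therapy, and its title names the cytokine IL-33. The labels give no tumor line, no tissue drained by the LN nodes, no age and no markers used for the sort, and they do not say whether LN donors carried tumors or whether nodes were pooled. Nor do they tie the libraries to animals, and p-values then describe spread that could be technical. All values are from bulk RNA, in which fewer cells of a type and less RNA per cell cannot be told apart.

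MSM line the medullary sinuses through which lymph leaves the node, take up particles, immune complexes and dying cells from it, and depend on the growth factor CSF1. They are usually recognised by F4/80 (Adgre1) together with the scavenger receptor MARCO and the lectin SIGN-R1 (Cd209b), and both MSM and SSM carry CD169 (Siglec1), SSM with little F4/80. In nodes that drain a tumor, sinus macrophages are the first phagocytes to meet tumor material arriving in lymph.

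The 6 libraries held 7.65 to 9.55 M counts. The labelled LN PBS 2 library stood apart from its group. Over 7997 expressed genes its log CPM correlated at 0.992 and 0.990 with SSM LN PBS 1 and 3, and at 0.751 and 0.750 with MSM LN PBS 1 and 3. The latter correlated with each other at 0.991. The TDLN libraries correlated at 0.993 to 0.995 with each other and at 0.822 to 0.830 with LN PBS 1 and 3. Results are therefore given with all 3 LN libraries and without LN PBS 2, and where 3 values are listed they are CPM (counts scaled by library size) in libraries 1, 2 and 3 of the group. Where 3 are set against 3, the LN comes first. Defining MSM markers did not follow the label. Marco was at 0.62, 1392 and 1.04 CPM in the LN and at 1.08, 0.5 and 1.21 CPM in the TDLN, and Cd209b was at 3.97, 7422 and 5.61 CPM in the LN and 2.51, 2.87 and 3.24 CPM in the TDLN. Both were thus low in 5 of the 6 libraries and high only in LN PBS 2, so MSM is used here as the label and not as a type read from the data. The summed medullary marker list, which holds both genes, did not follow the label over the 24 macrophage libraries either. After cisplatin the LN sums were 51.6 to 56.6 CPM for MSM labels but 4328 to 4442 CPM for SSM labels. LN PBS sums spanned 672 to 10773.5 under MSM and 695 to 11028 under SSM. TDLN PBS sums were 571 to 608 and 572 to 594, and TDLN cisplatin sums 584 to 9678 and 599 to 9832. The reason was not tested. Adgre1 was measured in all 6 compared libraries, at 549.6, 197 and 551 CPM in the LN and 313, 295 and 295 CPM in the TDLN. The CSF1 receptor gene Csf1r was at 1179.9, 1419.6 and 1203 against 804, 738 and 779 CPM. T cell transcripts were also abundant, with Cd3e at 457, 117 and 498 CPM in the LN and 764, 747 and 754 CPM in the TDLN.

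Differences were tested with edgeR's quasi-likelihood test and Benjamini-Hochberg adjustment at 0.05. With all 3 LN libraries, 1974 of 17002 genes (11.6%) were higher in the TDLN and 4515 (26.6%) lower. Without LN PBS 2, 2965 of 18606 (15.9%) were higher and 5354 (28.8%) lower. Although LN PBS 2 stood apart from its group, 4008 genes (23.6%) had all TDLN libraries above all LN libraries. A further 5519 (32.5%) had all of them below, so a lack of overlap alone was common. A strict rule is therefore used. A gene counts as higher or lower only where both fits called it in that direction, its fitted change was at least 2-fold in both, and the 3 TDLN and 3 LN libraries did not overlap. By that rule 1079 genes (6.35%) were higher and 3101 (18.2%) lower, and these shares are the background for every count of list members below. For genes at 0 counts in a group the fitted change depends on a prior count. With such genes taken instead at the least fold that a floor of 3 counts per library allows, a condition added after the data were seen, 1073 higher and 2961 lower genes met the rule. Of the list members below, 9 lower ones then fell short of 2-fold, 2 in the mast cell list and 1 each in the cell cycle, histone, p53, plasmacytoid, NK, endothelial and melanocyte lists. Leaving out LN PBS 1 or LN PBS 3 brought the 1079 down to 608 and 579, while leaving out LN PBS 2 raised it to 1912. The median log2 difference over all genes tested was -0.21 with all 3 LN libraries and -0.10 without LN PBS 2. Brackets give for each gene the log2 difference (TDLN minus LN ± standard error) and adjusted p with all 3 LN libraries, then both without LN PBS 2.

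**Figure D1:**
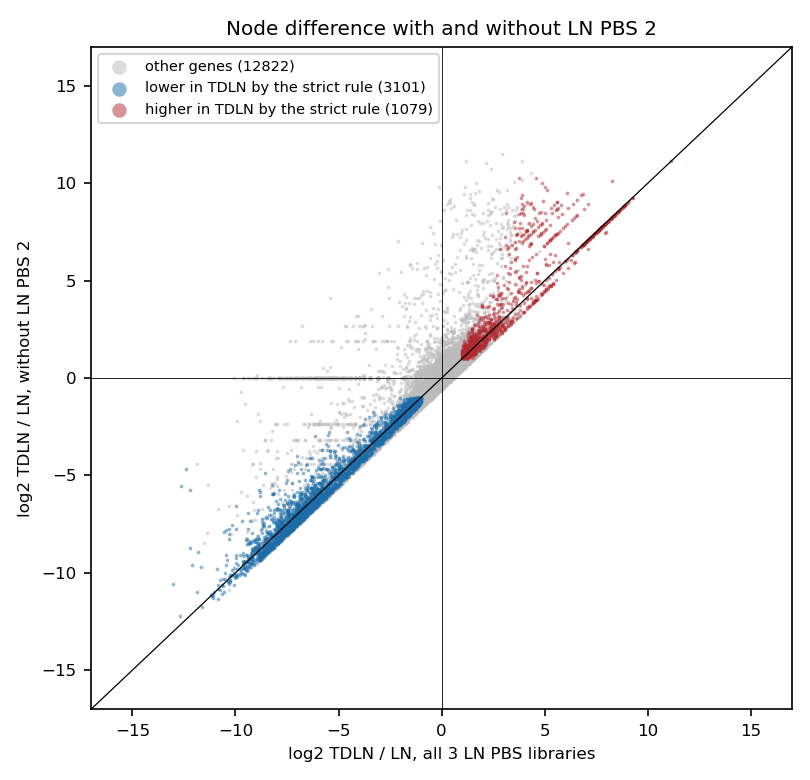
Log2 difference TDLN minus LN for each gene tested, with all 3 LN PBS libraries (x axis) and without LN PBS 2 (y axis). Points are genes, the diagonal marks equal values, blue and red mark the 3101 lower and 1079 higher genes of the strict rule. Grey points far above the diagonal are genes with a high level in LN PBS 2 alone among the LN libraries, and those on the horizontal line at 0 had no counts in the other 5 libraries.

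Fewer genes were detected in the TDLN libraries. They had counts for 17444 to 17684 genes, against 22950 to 24994 in the LN PBS libraries. The MSM LN cisplatin libraries were also low, at 18726, 19114 and 19037 genes. The other macrophage libraries had 21032 to 25022. Of the 3101 lower genes, 1244 were at 0 counts in all TDLN libraries, and of the 1079 higher genes 147 were at 0 in all LN libraries. Among genes at 20 CPM or more in every library of a group and at no more than 3 counts in every library of the other, 35 were in the LN and not the TDLN, and 1 the reverse. Without LN PBS 2 these counts were 53 and 9. Counted in the same way without LN PBS 2, 117 genes were in MSM LN PBS and not in MSM LN cisplatin libraries, and 34 the reverse. Such genes were thus not particular to the TDLN. Emsy, a chromatin protein gene used in most tissues, was at 51.6, 36.7 and 55.1 CPM in the LN and at 0 counts in each TDLN library, at least 126-fold lower. For genes at 0 in a group the bound takes 3 counts per library as a floor and covers counting error only. Usp7, which encodes a deubiquitinase needed in most cells, was at 23.7, 20.3 and 21.8 CPM in the LN and 0.597, 0.875 and 0.675 CPM in the TDLN (-4.91 ± 0.21, adjusted p = 8.19e-07, then -4.95, adjusted p = 9.7e-07). Whether the lower detection bears on other lower genes was not tested. Of ribosomal protein genes, 0 of 30 passed the strict rule in either direction (3 were called lower with all 3 LN libraries and 1 without LN PBS 2), and their median log2 difference was 0.02. Mitochondrial transcripts had 3 of 12 members lower and 0 higher by the strict rule (7 lower and 0 higher with all 3 LN libraries, 5 and 0 without LN PBS 2). Their median log2 difference was -1.10, and -0.97 without LN PBS 2, against -0.21 and -0.10 over all genes. Among them mt-Nd4 was at 182, 329.5 and 220.3 CPM in the LN and 77.6, 99.9 and 78.4 CPM in the TDLN (-1.52 ± 0.25, adjusted p = 0.00109, then -1.23, adjusted p = 0.00163).

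The widest separations between the groups were found by the gap on the log2(CPM + 1) scale between their nearest libraries, among genes of the strict rule. Egr4 (ENSMUSG00000071341, GRCm38 chromosome 6, 85511121 to 85513589, minus strand), a zinc finger transcription factor of the early growth response family, was at 0 counts in the 3 LN libraries and at 32.7, 35.5 and 36.7 CPM in the TDLN, at least 96.3-fold higher. The ETS family transcription factor gene Erg was likewise at 0 counts in the LN and at 11, 9.12 and 7.96 CPM in the TDLN, at least 25.8-fold higher. Dbn1, which encodes the actin-binding protein drebrin, was at 2.6, 0.761 and 1.96 CPM in the LN and 44.1, 43 and 40.6 CPM in the TDLN (4.58 ± 0.88, adjusted p = 0.00272, then 4.22, adjusted p = 0.00638). These genes were thus at 0 or low in all LN libraries, LN PBS 2 included, and the groups did not overlap. The same held for Myo6, an unconventional myosin gene, at 0.248, 0.978 and 0.391 against 18.2, 20.2 and 18.6 CPM (5.08 ± 1.07, adjusted p = 0.00448, then 5.84, adjusted p = 0.00588). It also held for Slc6a8, the creatine transporter gene, at 0.372, 0.109 and 0 against 14.3, 11.9 and 14.8 CPM (6.28 ± 0.86, adjusted p = 0.00212, then 6.07, adjusted p = 0.00376). Grb10, an adaptor of insulin receptor signalling, went from 0, 0 and 0.13 to 14.7, 14.5 and 11.6 CPM, a count ratio of 341, interval 60.7 to 13499.6. Others with a wide gap upward were Ccdc157, Stag3, Nrbp2, Notch4 and Mmp8, the last 2 described with their lists.

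In the other direction, Slc15a4 (ENSMUSG00000029416, GRCm38 chromosome 5, 127595664 to 127632897, minus strand), a lysosomal peptide and histidine transporter that endosomal Toll-like receptors need, was at 75.6, 151 and 76.1 CPM in the LN and at 0 counts in every TDLN library, at least 266-fold lower and at least 200-fold without LN PBS 2. Bcar3, an adaptor of integrin signalling, was at 31.5, 107 and 33 CPM in the LN and at 0 in the TDLN, at least 151-fold lower and at least 85-fold without LN PBS 2. Gypc, encoding the membrane protein glycophorin C, was at 37.2, 31.3 and 34.7 CPM and at 0 in the TDLN, at least 90.7-fold lower. All 3 genes had no count in any TDLN library, and Bcar3 and Slc15a4 were highest in LN PBS 2. Cyp27a1, a mitochondrial sterol hydroxylase, was at 48.7, 50.2 and 49.3 CPM in the LN and 0.239, 0.375 and 0.54 CPM in the TDLN (-6.97 ± 0.39, adjusted p = 2.21e-06, then -6.95, adjusted p = 5.57e-06). Cd40, Cd79a, Emsy, Fcmr, Gata2, Parp14, Cx3cl1 and Trim21 completed the genes with the widest downward gaps.

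**Figure D2:**
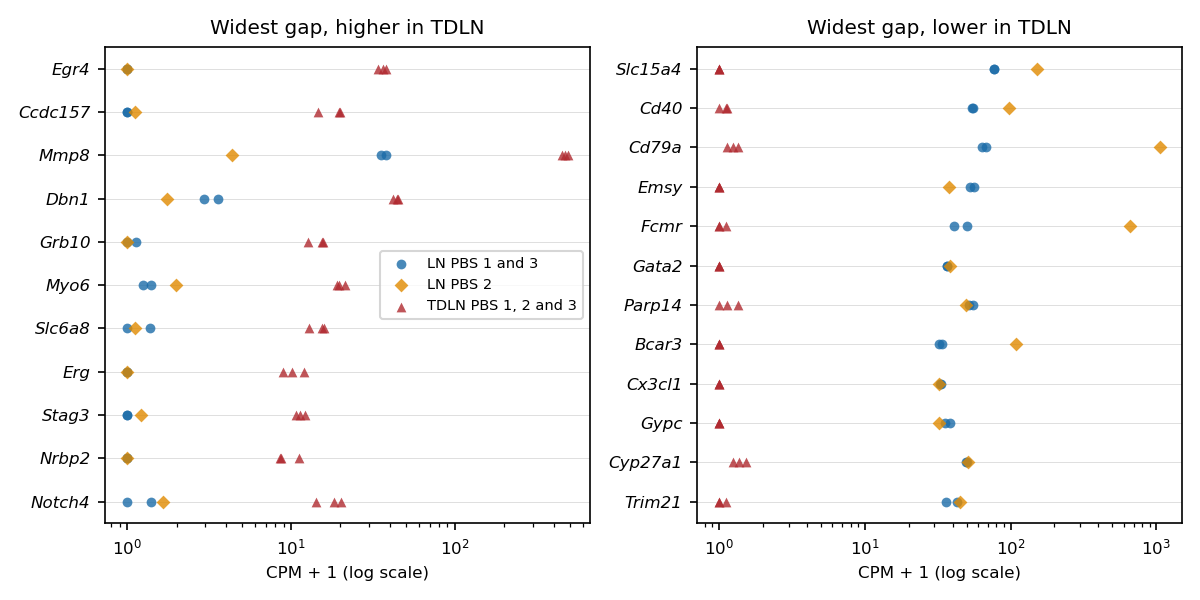
CPM + 1 on a log axis for genes with the widest gap in each direction, by library. Blue circles are LN PBS 1 and 3, orange diamonds LN PBS 2 and red triangles the 3 TDLN PBS libraries. For each gene the TDLN libraries lie on 1 side of all LN libraries, and LN PBS 2 differs from LN PBS 1 and 3 most for Cd79a, Fcmr and Mmp8.

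Many type I interferon genes were lower in TDLN MSM. These genes are switched on when interferon receptors activate a transcription factor complex that includes STAT2 and IRF9, which binds the interferon-stimulated response element (ISRE), and their products restrict viral replication. In this list 16 of 35 tested members were lower and 0 higher by the strict rule (45.7% lower), with 20 lower and 0 higher with all 3 LN libraries, 23 and 0 without LN PBS 2. The list's median log2 difference was -1.13, against -0.21 over all genes. Irf9, the DNA-binding subunit of the interferon-activated complex, was at 148, 143 and 159.9 CPM in the LN and 52.3, 60.1 and 56.3 CPM in the TDLN (-1.42 ± 0.14, adjusted p = 5.22e-05, then -1.44, adjusted p = 8.77e-05). Oasl2, an antiviral protein of the oligoadenylate synthetase family, was at 200.4, 59.8 and 188 against 40.5, 41.1 and 46 CPM (-1.81 ± 0.35, adjusted p = 0.00287, then -2.18, adjusted p = 3.18e-06). Ifi27l2a was at 225, 136 and 204 against 50.8, 49.7 and 48.3 CPM (-1.93 ± 0.35, adjusted p = 0.00186, then -2.10, adjusted p = 0.00146). In each of these the groups did not overlap, and for Oasl2 the LN PBS 2 value lay nearest to the TDLN. Irf7, the transcription factor that amplifies interferon production, was at 545, 262 and 567 against 194, 195 and 181 CPM (-1.27 ± 0.37, adjusted p = 0.0205, then -1.54, adjusted p = 0.00521). Its call was lost on leaving out any 1 of LN PBS 1, LN PBS 3 or the TDLN libraries (adjusted p 0.0706 to 0.0852). Parp14 (ENSMUSG00000034422, GRCm38 chromosome 16, 35832874 to 35871544, minus strand), a mono-ADP-ribosyltransferase, was at 54.5, 48.1 and 50.9 CPM in the LN and 0.358, 0 and 0.135 CPM in the TDLN (-8.13 ± 0.57, adjusted p = 7.02e-06, then -8.16, adjusted p = 1.21e-05). The 19 members that did not pass include Usp18, named after its value was seen. Usp18, a brake on the interferon receptor, was at 55.9, 52.3 and 60.8 against 56.5, 58.9 and 65.3 CPM (0.10 ± 0.11, adjusted p = 0.528, then 0.05, adjusted p = 0.765).

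To show what the promoters of these genes hold, the window from 250 bases before to 50 after each RefSeq start (GRCm38.p6) was searched on both strands for the ISRE as 2 copies of GAAA with any 2 bases between them, where matches may overlap each other. It was found in 14 of 24 interferon promoters available (58.3%), in 4 of 9 among the lower members (44.4%) and in 10 of 15 among the others (66.7%), against 3.52% of all 27025 promoters and 3.45% of those of genes tested. Of all lower genes 3.87% held it, and of all higher genes 2.27%. The sequences below end at the base before the start, run 5′ to 3′ on the gene's strand, and have ISRE matches in capitals. Oas1a and Slfn5 were lower by the strict rule, and Isg15 and Rsad2 did not pass it. All 4 were chosen after their values were seen, to set members that differ in outcome beside each other.
Oas1a (chr5:120907526-120907625, minus strand): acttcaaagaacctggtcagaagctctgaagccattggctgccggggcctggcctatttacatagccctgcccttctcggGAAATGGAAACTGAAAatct
Slfn5 (chr11:82951942-82952101, plus strand): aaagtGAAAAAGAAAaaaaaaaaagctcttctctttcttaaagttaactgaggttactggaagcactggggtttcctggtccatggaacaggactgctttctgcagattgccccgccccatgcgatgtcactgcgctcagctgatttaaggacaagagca
Isg15 (chr4:156200819-156200918, minus strand): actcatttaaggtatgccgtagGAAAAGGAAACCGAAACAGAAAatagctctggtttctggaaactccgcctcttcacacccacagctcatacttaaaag
Rsad2 (chr12:26456453-26456612, minus strand): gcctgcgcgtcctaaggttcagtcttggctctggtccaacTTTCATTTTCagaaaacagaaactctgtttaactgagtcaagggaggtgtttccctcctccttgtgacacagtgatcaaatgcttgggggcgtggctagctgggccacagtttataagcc

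Oas1a, with overlapping ISRE matches close to its start, was at 111, 109 and 111 CPM in the LN and 31.8, 28.9 and 26.3 CPM in the TDLN (-1.93 ± 0.30, adjusted p = 0.00087, then -1.93, adjusted p = 0.00176). Slfn5 has its match farther upstream and was at 123, 116 and 115 against 38.6, 43.2 and 38.9 CPM (-1.56 ± 0.20, adjusted p = 0.000306, then -1.56, adjusted p = 0.000654). In both, the 3 LN libraries lay within a narrow range and the TDLN libraries well below them. Isg15, a ubiquitin-like interferon effector with 3 ISRE matches, was at 196, 41.9 and 198 against 65.8, 70.5 and 66.4 CPM (-1.10 ± 0.49, adjusted p = 0.1, then -1.53, adjusted p = 0.00249). Rsad2, the antiviral protein viperin, was at 95.5, 16.6 and 94.7 against 33, 31.5 and 30.1 CPM (-1.13 ± 0.62, adjusted p = 0.172, then -1.59, adjusted p = 0.0193). For both, LN PBS 2 lay below the TDLN and the other LN libraries above it, and the difference was called without LN PBS 2 and not with it.

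**Figure D3:**
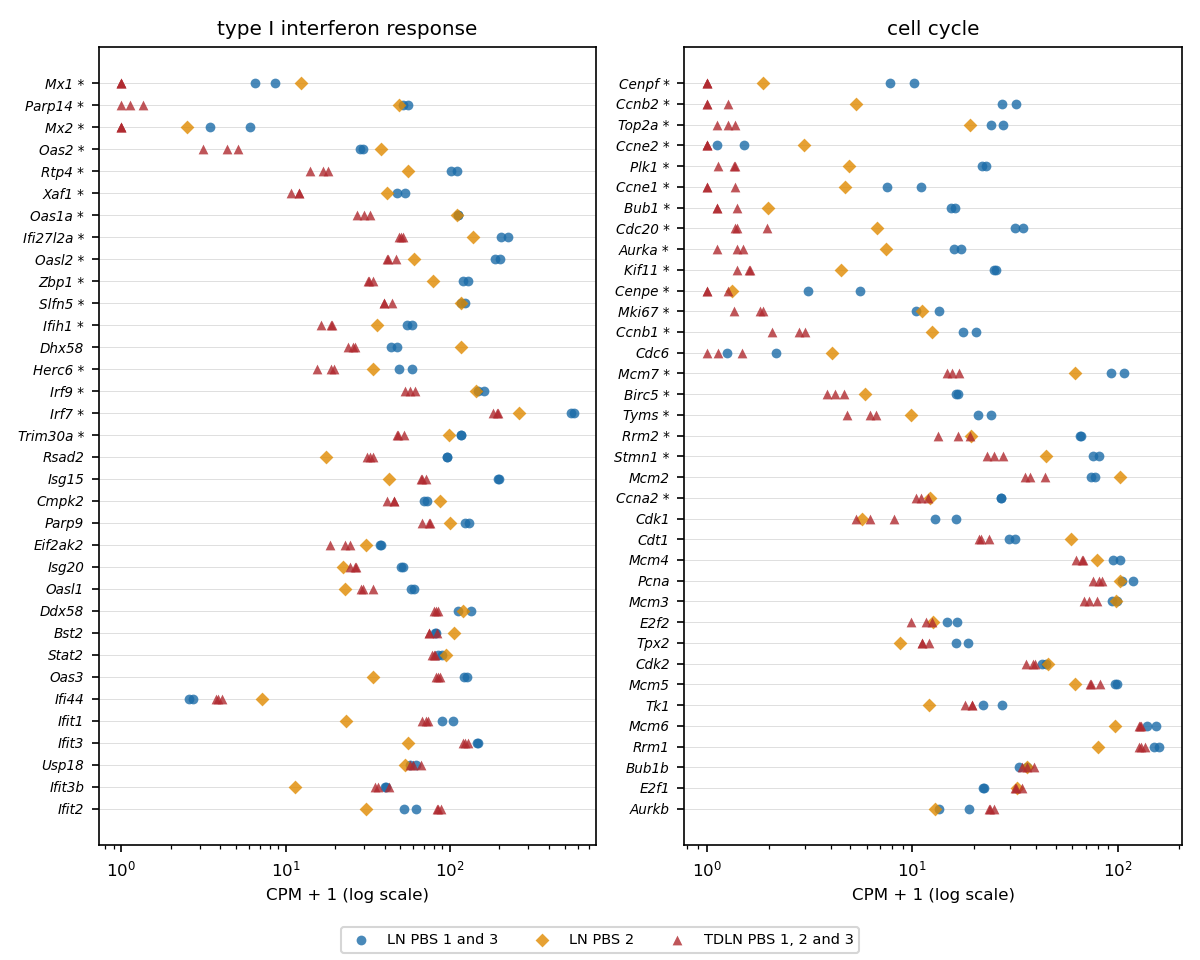
CPM + 1 on a log axis for tested members of the type I interferon (left) and cell cycle (right) lists, ordered by log2 difference with the lowest at the top. Symbols are as in the plot of the widest gaps, and a star marks the 16 and 19 members lower by the strict rule. LN PBS 2 lies among or below the TDLN libraries for several interferon genes such as Rsad2, Isg15 and Oasl1.

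Of interferon gamma targets 4 of 21 tested members were lower and 0 higher by the strict rule (6 lower and 1 higher with all 3 LN libraries, 7 and 1 without LN PBS 2). That is 19% lower, near the 18.2% over all genes. Irgm1, a GTPase of intracellular defence, was at 191, 193 and 178 CPM in the LN and 65.1, 57.2 and 62.2 CPM in the TDLN (-1.61 ± 0.31, adjusted p = 0.00288, then -1.58, adjusted p = 0.00572). The checkpoint ligand gene Cd274 (PD-L1), shared with the costimulation list, was at 172, 111 and 182 against 62.4, 72 and 65.6 CPM (-1.22 ± 0.26, adjusted p = 0.00437, then -1.40, adjusted p = 0.00146). Both were lower in all TDLN libraries than in any LN library. Of MHC class I genes 1 of 18 tested members was lower and 0 higher by the strict rule (2 lower and 1 higher with all 3 LN libraries, 4 and 1 without LN PBS 2). The member lower by the rule, the class I transactivator Nlrc5, was at 129, 108 and 138 against 53, 49.2 and 49.4 CPM (-1.30 ± 0.28, adjusted p = 0.00473, then -1.39, adjusted p = 0.00501). Of MHC class II genes 1 of 14 tested members was lower and 0 higher by the strict rule (3 lower and 0 higher with all 3 LN libraries, 1 and 0 without LN PBS 2). H2-Eb2, a class II beta chain, was at 0.991, 18.7 and 1.3 against 0.119, 0 and 0 CPM. Its level in LN PBS 1 and 3 was already close to 1 CPM.

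Cell cycle genes were also lower in the TDLN in large part. In that list 19 of 36 tested members were lower and 0 higher by the strict rule (52.8% lower), with 23 lower and 0 higher with all 3 LN libraries, 22 and 0 without LN PBS 2. Its median log2 difference was -1.56 (-1.32 with genes at 0 taken at their bound). The summed level of the list was 1515, 1055 and 1491 CPM in the LN and 878, 858 and 839 CPM in the TDLN, so the groups did not overlap. Mcm7, a subunit of the replicative helicase, was at 106, 60.8 and 91.6 CPM in the LN and 15.9, 14.6 and 13.8 CPM in the TDLN (-2.54 ± 0.30, adjusted p = 0.000175, then -2.73, adjusted p = 0.00011). Stmn1, a microtubule-destabilising protein of dividing cells, was at 75.1, 44 and 80 against 24.1, 26.6 and 22 CPM (-1.45 ± 0.23, adjusted p = 0.000947, then -1.67, adjusted p = 0.000102). Rrm2, a ribonucleotide reductase subunit, was at 65.2, 18.4 and 64.6 against 18.2, 15.6 and 12.4 CPM (-1.68 ± 0.40, adjusted p = 0.00843, then -2.06, adjusted p = 7.08e-05). For Rrm2 the lowest LN library, LN PBS 2, was only just above the highest TDLN library. Replication-dependent histone transcripts, which mark DNA synthesis but are poorly captured by polyA selection, had 7 of 13 members lower and 0 higher. Among them Hist1h1e, a linker histone gene, was at 6.32, 10.9 and 8.48 against 1.67, 1.75 and 0.54 CPM (-2.67 ± 0.46, adjusted p = 0.0014, then -2.45, adjusted p = 0.00268).

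Mitotic genes are commonly controlled through a CHR element (searched as TTTGAA) together with CCAAT boxes, both bound by repressing or activating complexes according to the cell cycle phase. In the same promoter windows, CHR was found in 11 of 30 cell cycle promoters (36.7%), in 8 of 16 among the lower members (50%) and in 3 of 14 among the others (21.4%), against 18.1% of all promoters and 13.1% of those of genes tested. CCAAT was found in 13 of 16 (81.2%) and 10 of 14 (71.4%), against 37.8% and 38.4%. The E2F site, searched as TTTCCCGC or GGCGGGAA, was in 0 of 16 and 4 of 14, against 2.81% and 4.84%. Among all higher and all lower genes the CHR shares were 15.4% and 15.9%, below that of all promoters and above that of genes tested, and the E2F shares 4.23% and 4.34%. The 3 lower members below, which have both elements and were chosen after their values were seen, are shown over the last 100 bases before the start, with CHR and CCAAT matches on either strand in capitals.
Top2a (chr11:99024190-99024289, minus strand): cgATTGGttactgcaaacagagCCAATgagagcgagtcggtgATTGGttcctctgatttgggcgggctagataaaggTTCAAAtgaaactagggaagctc
Cdc20 (chr4:118437344-118437443, minus strand): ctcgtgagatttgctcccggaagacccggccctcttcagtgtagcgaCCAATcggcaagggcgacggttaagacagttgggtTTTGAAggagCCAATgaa
Kif11 (chr19:37376282-37376381, plus strand): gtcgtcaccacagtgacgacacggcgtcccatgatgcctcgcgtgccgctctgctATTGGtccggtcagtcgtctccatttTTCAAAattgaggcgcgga

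Top2a, the topoisomerase that untangles chromosomes, was at 23, 18.2 and 26.6 CPM in the LN and 0.119, 0.375 and 0.27 CPM in the TDLN (-6.40 ± 0.35, adjusted p = 2.21e-06, then -6.53, adjusted p = 2.52e-06). Cdc20, an activator of the anaphase-promoting complex, was at 30.6, 5.76 and 33.8 against 0.956, 0.375 and 0.405 CPM (-5.29 ± 1.03, adjusted p = 0.00296, then -5.74, adjusted p = 0.00126). Kif11, a spindle motor, was at 23.9, 3.48 and 24.5 against 0.597, 0.625 and 0.405 CPM (-4.95 ± 0.67, adjusted p = 0.00037, then -5.43, adjusted p = 8.1e-07). All 3 were below 1 CPM in every TDLN library. In LN PBS 2 Cdc20 and Kif11 were at a fraction of their level in LN PBS 1 and 3, whereas Top2a was close to it.

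Several receptors for microbial products were lower in TDLN MSM: 9 of 24 tested members were lower and 1 higher by the strict rule (11 lower and 1 higher with all 3 LN libraries, 10 and 1 without LN PBS 2). Tlr2 (ENSMUSG00000027995, GRCm38 chromosome 3, 83836272 to 83841767, minus strand), the receptor for bacterial lipoproteins, was at 194, 85.2 and 174 CPM in the LN and 10.4, 8.87 and 10.7 CPM in the TDLN (-3.92 ± 0.29, adjusted p = 8.9e-06, then -4.19, adjusted p = 8.1e-07). Its partner Tlr1, named after its value was seen, was at 43.9, 67.2 and 44.6 against 0.358, 0.625 and 0.675 CPM (-6.52 ± 0.31, adjusted p = 1.74e-06, then -6.29, adjusted p = 9.7e-07). Nod1, a cytosolic sensor of bacterial cell wall peptides, was at 95.9, 154 and 100.1 against 23.5, 19.9 and 23.5 CPM (-2.39 ± 0.34, adjusted p = 0.000477, then -2.13, adjusted p = 0.00104). The lipoprotein receptor pair was thus lower in every TDLN library than in any LN library. Nlrp3, the sensor of the inflammasome that matures IL-1β, was at 141, 16.4 and 114 against 7.29, 7.12 and 5.4 CPM (-3.77 ± 0.78, adjusted p = 0.00411, then -4.26, adjusted p = 0.000386). Tlr7, the endosomal sensor of single-stranded RNA, was at 49.7, 25.1 and 43.3 against 11.1, 12.7 and 16.2 CPM (-1.56 ± 0.36, adjusted p = 0.00715, then -1.79, adjusted p = 0.00281). For Nlrp3 the LN PBS 2 library was far nearer to the TDLN than to LN PBS 1 and 3. The 1 higher member was Tirap, the adaptor that links TLR2 and TLR4 to MyD88, at 9.42, 19.9 and 10.2 against 25.2, 30.4 and 28.1 CPM (1.08 ± 0.28, adjusted p = 0.012, then 1.52, adjusted p = 0.000295). Ticam1, the adaptor of TLR3 and TLR4 also known as TRIF and likewise named after its value was seen, was at 17.3, 18.9 and 17.5 CPM in the LN and at 0 counts in the TDLN, at least 47.2-fold lower.

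Among cytokines of the IL-1 family, 1 of 17 tested members was lower and 2 higher by the strict rule (3 lower and 3 higher with all 3 LN libraries, 6 and 3 without LN PBS 2). Il1b, the inflammasome product, was at 2228, 507 and 2158 CPM in the LN and 465, 458 and 463 CPM in the TDLN (-1.82 ± 0.53, adjusted p = 0.0216, then -2.24, adjusted p = 0.00161), so LN PBS 2 was nearer to the TDLN. The Il1b call was lost on leaving out LN PBS 1, LN PBS 3 or any TDLN library (adjusted p 0.0693 to 0.0806). The higher members were a decoy and a receptor. Il18bp, which neutralises IL-18, was at 81.5, 73.1 and 71.9 against 178, 177 and 168 CPM (1.21 ± 0.29, adjusted p = 0.00838, then 1.19, adjusted p = 0.0181). Il1rl2, the receptor for IL-36, was at 6.07, 8.26 and 4.57 against 31.4, 34.1 and 30.1 CPM (2.33 ± 0.46, adjusted p = 0.00508, then 2.59, adjusted p = 0.00616).

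Il33 (ENSMUSG00000024810, GRCm38 chromosome 19, 29925114 to 29960718, plus strand), the alarmin in the study's title, was at 0, 17 and 0 CPM in the LN and 5.61, 6.25 and 6.34 CPM in the TDLN. All TDLN libraries thus held Il33, LN PBS 1 and 3 had 0 counts, and LN PBS 2 had the highest level. With all 3 LN libraries the log2 difference was 0.09 ± 2.07 (adjusted p = 0.988), and without LN PBS 2 Il33 was at least 15.9-fold higher in the TDLN, which did not pass the test (adjusted p = 0.0887). Its receptor gene Il1rl1 (ST2; ENSMUSG00000026069, GRCm38 chromosome 1, 40429570 to 40465415, plus strand) was at 43.1, 10.9 and 42.3 CPM in the LN and 11.9, 11.5 and 12.4 CPM in the TDLN (-1.42 ± 0.65, adjusted p = 0.106, then -1.83, adjusted p = 0.0265). LN PBS 2 lay at the TDLN level, and Il1rl1 was called without it and not with it. Genes of type 2 immunity and alternative activation had 5 of 20 tested members lower and 0 higher by the strict rule (10 lower and 0 higher with all 3 LN libraries, 8 and 0 without LN PBS 2). They include Mgl2, a galactose lectin, at 8.67, 15.5 and 11 against 4.06, 3.25 and 2.97 CPM (-1.77 ± 0.34, adjusted p = 0.00467, then -1.50, adjusted p = 0.00631). Ccl22, a chemokine for regulatory and type 2 T cells, was at 4.71, 40.2 and 6.52 CPM in the LN and 0.239, 0 and 0.135 CPM in the TDLN (-6.93 ± 1.46, adjusted p = 0.00449, then -5.30, adjusted p = 0.0116).

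In 3 other inflammatory lists 12.5% to 22.2% of members were lower, against 18.2% over all genes. In the NF-kB and cytokine list 4 of 26 tested members were lower and 0 higher by the strict rule (10 lower and 1 higher with all 3 LN libraries, 10 and 1 without LN PBS 2). Bcl3, a nuclear IkB protein, was at 159.9, 174 and 172 against 72.5, 83.4 and 79 CPM (-1.11 ± 0.12, adjusted p = 7.65e-05, then -1.08, adjusted p = 0.000154). Il12a, the p35 subunit of IL-12, was at 1.24, 4.68 and 1.83 against 0.119, 0 and 0 CPM (-5.51 ± 1.03, adjusted p = 0.00232, then -4.74, adjusted p = 0.00439). Among chemokines 3 of 24 tested members were lower and 0 higher by the strict rule (9 lower and 0 higher with all 3 LN libraries, 10 and 3 without LN PBS 2). Cx3cl1, the membrane-bound chemokine fractalkine, was at 32, 31.3 and 32.5 CPM in the LN and at 0 counts in the TDLN, at least 84.1-fold lower. Ccl2, the monocyte attractant, was at 11.9, 74.4 and 10.8 against 2.03, 2.75 and 1.35 CPM (-3.97 ± 0.75, adjusted p = 0.00254, then -2.45, adjusted p = 0.000415), with LN PBS 2 several times above the other LN libraries. Fractalkine was even across the LN libraries, unlike Ccl2. Of chemokine and lipid attractant receptors 6 of 27 tested members were lower and 0 higher by the strict rule (9 lower and 1 higher with all 3 LN libraries, 9 and 0 without LN PBS 2). Ccr7, the receptor that guides cells to T zones, was at 224, 1256 and 209 against 59.7, 55.5 and 60.6 CPM (-3.26 ± 0.61, adjusted p = 0.00239, then -1.88, adjusted p = 2.21e-05). Fpr2, a formyl peptide receptor, was at 21.1, 1.85 and 20.6 against 0, 0 and 0.135 CPM (-7.97 ± 1.44, adjusted p = 0.0033, then -8.49, adjusted p = 0.00059). S1pr3, a sphingosine phosphate receptor, was at 7.19, 41.9 and 7.96 against 0.239, 0 and 0 CPM (-7.59 ± 1.03, adjusted p = 0.000375, then -6.25, adjusted p = 4.4e-05). LN PBS 2 was the highest LN library for Ccr7 and S1pr3 and the lowest for Fpr2, and the groups did not overlap for any of them.

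Uptake receptors differed gene by gene. Of Fc receptors 3 of 8 tested members were lower and 0 higher by the strict rule (4 lower and 0 higher with all 3 LN libraries, 4 and 0 without LN PBS 2). Fcgr2b, the inhibitory IgG receptor that also retains immune complexes, was at 181, 131 and 188 CPM in the LN and 35.4, 39.7 and 36.2 CPM in the TDLN (-2.17 ± 0.14, adjusted p = 5.65e-06, then -2.31, adjusted p = 1.05e-06). Fcgr1, the high-affinity IgG receptor CD64, was at 18.3, 69.6 and 20 against 0.119, 0.5 and 0 CPM (-7.32 ± 1.72, adjusted p = 0.00779, then -6.40, adjusted p = 0.0137). Trim21, a cytosolic IgG receptor and ubiquitin ligase, was at 35.1, 43.7 and 42 CPM in the LN and 0, 0.125 and 0 CPM in the TDLN (a count ratio of 960.5, interval 172 to 37974). Each was lower in all TDLN libraries, and Fcgr1 was the only sinus macrophage identity gene of 19 tested that passed the strict rule. In the scavenger and lectin list 4 of 18 tested members were lower and 0 higher by the strict rule (4 lower and 1 higher with all 3 LN libraries, 5 and 2 without LN PBS 2). Msr1, the class A scavenger receptor, was at 51.2, 38.7 and 55.2 against 3.46, 4.87 and 4.72 CPM (-3.47 ± 0.22, adjusted p = 4.23e-06, then -3.60, adjusted p = 3.54e-06). Clec7a, the beta-glucan receptor dectin-1, was at 311, 114 and 344 against 79.7, 88.7 and 85.3 CPM (-1.60 ± 0.35, adjusted p = 0.0054, then -1.95, adjusted p = 7.36e-05). Lrp1, a broad endocytic receptor, was at 55.5, 73.4 and 59.8 against 16.5, 13.6 and 14.7 CPM (-2.07 ± 0.43, adjusted p = 0.00413, then -1.94, adjusted p = 0.00625). Cd209a, a lectin of the DC-SIGN family, was at 13.4, 7.72 and 13.3 CPM in the LN and at 0 counts in the TDLN, at least 30.2-fold lower. For Clec7a and Cd209a the LN PBS 2 value was the lowest of the LN and still above all TDLN libraries. In genes for uptake of dying cells 4 of 23 tested members were lower and 0 higher by the strict rule (5 lower and 2 higher with all 3 LN libraries, 5 and 3 without LN PBS 2). Abca7, a phagocytosis-related lipid transporter, was at 153, 89.6 and 133 against 39.1, 34.1 and 38.7 CPM (-1.74 ± 0.33, adjusted p = 0.00266, then -1.93, adjusted p = 0.00168). Itgav, the integrin alpha V chain, was at 45.4, 27.9 and 50.4 against 16.1, 14.1 and 16.5 CPM (-1.40 ± 0.34, adjusted p = 0.00918, then -1.61, adjusted p = 0.00388).

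Complement had 1 of 21 tested members lower and 2 higher by the strict rule (1 lower and 3 higher with all 3 LN libraries, 2 and 7 without LN PBS 2). Cfb, factor B of the alternative pathway, was at 480.2, 594 and 474 CPM in the LN and 1224, 1189 and 1195 CPM in the TDLN (1.22 ± 0.18, adjusted p = 0.00063, then 1.34, adjusted p = 0.000675). C5ar2, a second receptor for C5a, was at 2.35, 2.17 and 1.57 against 9.32, 9.25 and 8.64 CPM (2.15 ± 0.51, adjusted p = 0.0081, then 2.21, adjusted p = 0.00727). C4b, a component of the classical pathway, was at 25.3, 15.4 and 19.3 CPM in the LN and at 0 counts in the TDLN, at least 52.7-fold lower. Cfb was thus abundant in both groups, whereas C4b had no count in the TDLN. Lysosome genes had 1 of 28 tested members lower and 0 higher by the strict rule (1 lower and 2 higher with all 3 LN libraries, 1 and 9 without LN PBS 2, against 15.9% higher over all genes in the latter fit). The lower member was Mitf, a transcription factor also in the melanocyte list. Iron and heme recycling genes had 0 of 20 in either direction (1 lower and 0 higher with all 3 LN libraries, 1 and 1 without LN PBS 2). Lysozyme and a lysosomal protease, named after their values were seen, were both called and higher but short of the 2-fold condition. Lyz2 was at 11724, 9854 and 11310.5 CPM in the LN and 21392, 21178 and 21304 CPM in the TDLN (0.96 ± 0.14, adjusted p = 0.000632, then 0.89, adjusted p = 0.0013). Ctsd, cathepsin D, was at 1540.4, 1222 and 1588 against 2906, 2884 and 2801 CPM (0.98 ± 0.14, adjusted p = 0.000489, then 0.88, adjusted p = 0.000555).

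The sinus macrophage identity list had 1 lower and 1 higher with all 3 LN libraries, 3 and 4 without LN PBS 2. Without LN PBS 2 its lower members were Fcgr1, Cd14 and Sirpa, and its higher members Lyz2, Siglec1, Mertk and Nr1h3, the last 3 called only in that fit. Siglec1 (CD169) was at 20.1, 356 and 15.9 CPM in the LN and 151, 129 and 147 CPM in the TDLN (0.12 ± 1.13, adjusted p = 0.954, then 2.99, adjusted p = 0.0263). Mertk, a receptor for dying cells, was at 1.86, 36.5 and 2.87 against 16.8, 15.4 and 18 CPM (0.28 ± 1.07, adjusted p = 0.868, then 2.82, adjusted p = 0.0341). The TDLN libraries of both genes lay between LN PBS 2 and the other LN libraries. Nr1h3, the sterol-sensing receptor LXR-alpha, was at 53.5, 434 and 53.5 against 269, 261 and 273 CPM (0.57 ± 0.85, adjusted p = 0.63, then 2.33, adjusted p = 0.0237). Apoe, its target and a carrier of cholesterol, was at 2264, 9347 and 2159 against 10255, 9131 and 10096 CPM (1.10 ± 0.73, adjusted p = 0.26, then 2.16, adjusted p = 0.0358). Apoe too was called only without LN PBS 2, which lay within the TDLN range. These members were named after their values were seen. In the cholesterol and lipid list 3 of 32 tested members were lower and 1 higher by the strict rule (7 lower and 3 higher with all 3 LN libraries, 5 and 6 without LN PBS 2). That is 9.4% lower and 3.1% higher, below the 18.2% and 6.35% over all genes. Fabp5, a fatty acid carrier, was higher, at 109, 90.6 and 95 against 219.7, 201 and 204 CPM (1.08 ± 0.13, adjusted p = 0.000218, then 1.04, adjusted p = 0.000441). Srebf2, the transcription factor of cholesterol synthesis, was at 139, 171 and 132 against 55.2, 68.2 and 65.6 CPM (-1.22 ± 0.13, adjusted p = 9.75e-05, then -1.09, adjusted p = 0.000109). Idi1, an enzyme of that pathway, was at 21.9, 28.9 and 28 against 1.08, 1.5 and 1.62 CPM (-4.22 ± 0.25, adjusted p = 2.53e-06, then -4.14, adjusted p = 5.39e-06).

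Signals by which macrophages contact lymphocytes and stroma were lower where they passed the rule, except in the Notch and immune regulation lists. The shares lower were 27.8% of costimulation and checkpoint ligands and 25% of niche signals, against 18.2% over all genes. They were 5.6% of immune regulation and 0% of Notch genes. Of costimulation and checkpoint ligands 5 of 18 tested members were lower and 0 higher by the strict rule (7 lower and 1 higher with all 3 LN libraries, 6 and 2 without LN PBS 2). Cd40 (ENSMUSG00000017652, GRCm38 chromosome 2, 165055627 to 165072948, plus strand), the receptor for T cell help, was at 53.3, 96.9 and 54.3 CPM in the LN and 0, 0.125 and 0.135 CPM in the TDLN (a count ratio of 828 with all 3 LN libraries, interval 229 to 6846). The fitted log2 difference of Cd40 was -9.42 ± 0.77, and -9.07 without LN PBS 2. Pdcd1lg2 (PD-L2) was at 8.43, 11.6 and 10 against 3.34, 5.87 and 3.1 CPM (-1.29 ± 0.28, adjusted p = 0.00566, then -1.16, adjusted p = 0.0111). Cd40 was thus nearly absent from the TDLN libraries, whereas Pdcd1lg2 and Cd274 were still measured in each. Among niche signals 4 of 16 tested members were lower and 0 higher by the strict rule (5 lower and 1 higher with all 3 LN libraries, 6 and 1 without LN PBS 2). Csf1 (ENSMUSG00000014599, GRCm38 chromosome 3, 107741048 to 107760469, minus strand) itself was at 213, 23.8 and 228 against 19.5, 20.9 and 21.9 CPM (-2.90 ± 0.64, adjusted p = 0.00566, then -3.40, adjusted p = 1.21e-05), with LN PBS 2 just above the TDLN. Csf2rb2, the mouse IL-3 receptor beta chain, was at 145, 67.1 and 170.4 against 23.9, 27.2 and 27.3 CPM (-2.29 ± 0.38, adjusted p = 0.00116, then -2.59, adjusted p = 0.000189). This value is uncertain because the gene shares sequence with its neighbour Csf2rb. The groups did not overlap for either gene. Immune regulation genes had 1 of 18 tested members lower and 1 higher by the strict rule (3 lower and 1 higher with all 3 LN libraries, 4 and 2 without LN PBS 2). The lower member Il27, a cytokine of the IL-12 family, was at 1.86, 5.44 and 1.96 CPM in the LN and 0 counts in the TDLN. In the Notch pathway 0 of 18 tested members were lower and 2 higher by the strict rule (3 lower and 3 higher with all 3 LN libraries, 6 and 3 without LN PBS 2). Notch4 was at 0, 0.652 and 0.391 CPM in the LN and 13.1, 17.4 and 19 CPM in the TDLN (5.48 ± 1.13, adjusted p = 0.0039, then 6.32, adjusted p = 0.00379). Nrarp, a Notch target that dampens the pathway, was at 7.31, 5.11 and 9 against 29, 29.1 and 35.8 CPM (2.13 ± 0.26, adjusted p = 0.000208, then 1.95, adjusted p = 0.000242). Both were higher in each TDLN library than in any LN library.

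In the metabolic and stress lists that follow, 10% to 18.8% of members were lower by the strict rule, against 18.2% over all genes. Higher members were found only among glycolysis and hypoxia genes (10%) and p53 targets (8.7%), against 6.35% over all genes. In the glycolysis and hypoxia list 3 of 30 tested members were lower and 3 higher by the strict rule (5 lower and 8 higher with all 3 LN libraries, 6 and 9 without LN PBS 2). Hk1, the hexokinase that starts glycolysis, was at 89.1, 98.1 and 93.5 CPM in the LN and 214, 206 and 195 CPM in the TDLN (1.13 ± 0.23, adjusted p = 0.00347, then 1.18, adjusted p = 0.00596). P4ha1, a collagen prolyl hydroxylase, was at 25.2, 35.9 and 24.5 against 59.5, 62.5 and 69.1 CPM (1.16 ± 0.23, adjusted p = 0.00315, then 1.37, adjusted p = 0.00162). Both were higher in the TDLN without overlap. Adm, the hypoxia-responsive peptide adrenomedullin, was at 6.2, 9.13 and 8.09 CPM in the LN and 0 counts in the TDLN, at least 20.6-fold lower. Of p53 targets 4 of 23 tested members were lower and 2 higher by the strict rule (5 lower and 3 higher with all 3 LN libraries, 6 and 4 without LN PBS 2). The BH3-only genes differed in direction. Bbc3 (PUMA) was at 4.71, 4.13 and 6.52 against 11.3, 15.1 and 13.4 CPM (1.37 ± 0.29, adjusted p = 0.00413, then 1.25, adjusted p = 0.00683). Pmaip1 (NOXA) was at 289.7, 163 and 352 against 57.3, 60.1 and 59.4 CPM (-2.19 ± 0.38, adjusted p = 0.00149, then -2.44, adjusted p = 0.000584). Ddb2, a sensor of ultraviolet damage, was at 64.9, 46.2 and 65.9 against 22.9, 25.9 and 19.8 CPM (-1.37 ± 0.16, adjusted p = 0.000169, then -1.51, adjusted p = 3.34e-05). For all 3 of these p53 targets the TDLN libraries lay on 1 side of the LN. Unfolded protein and integrated stress genes had 3 of 24 tested members lower and 0 higher by the strict rule (5 lower and 3 higher with all 3 LN libraries, 7 and 4 without LN PBS 2). Asns, asparagine synthetase, was at 10.7, 8.48 and 10.4 against 0.956, 0.625 and 0.81 CPM (-3.60 ± 0.58, adjusted p = 0.000993, then -3.69, adjusted p = 0.000815). Immediate early and heat shock genes, which respond to tissue digestion as well as to signals, had 6 of 32 tested members lower and 0 higher by the strict rule (10 lower and 0 higher with all 3 LN libraries, 12 and 1 without LN PBS 2). Zfp36, the mRNA-destabilising protein tristetraprolin, was at 1187, 711 and 1302 against 335, 373 and 346 CPM (-1.60 ± 0.37, adjusted p = 0.00723, then -1.82, adjusted p = 0.00365). Hspa1a, an inducible chaperone whose near-identical copy Hspa1b makes its count uncertain, was at 255, 107 and 220.0 against 9.91, 14.6 and 13 CPM (-3.95 ± 0.50, adjusted p = 0.000236, then -4.24, adjusted p = 0.00012). Both were lower in each TDLN library, with LN PBS 2 the lowest of the LN.

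**Figure D4:**
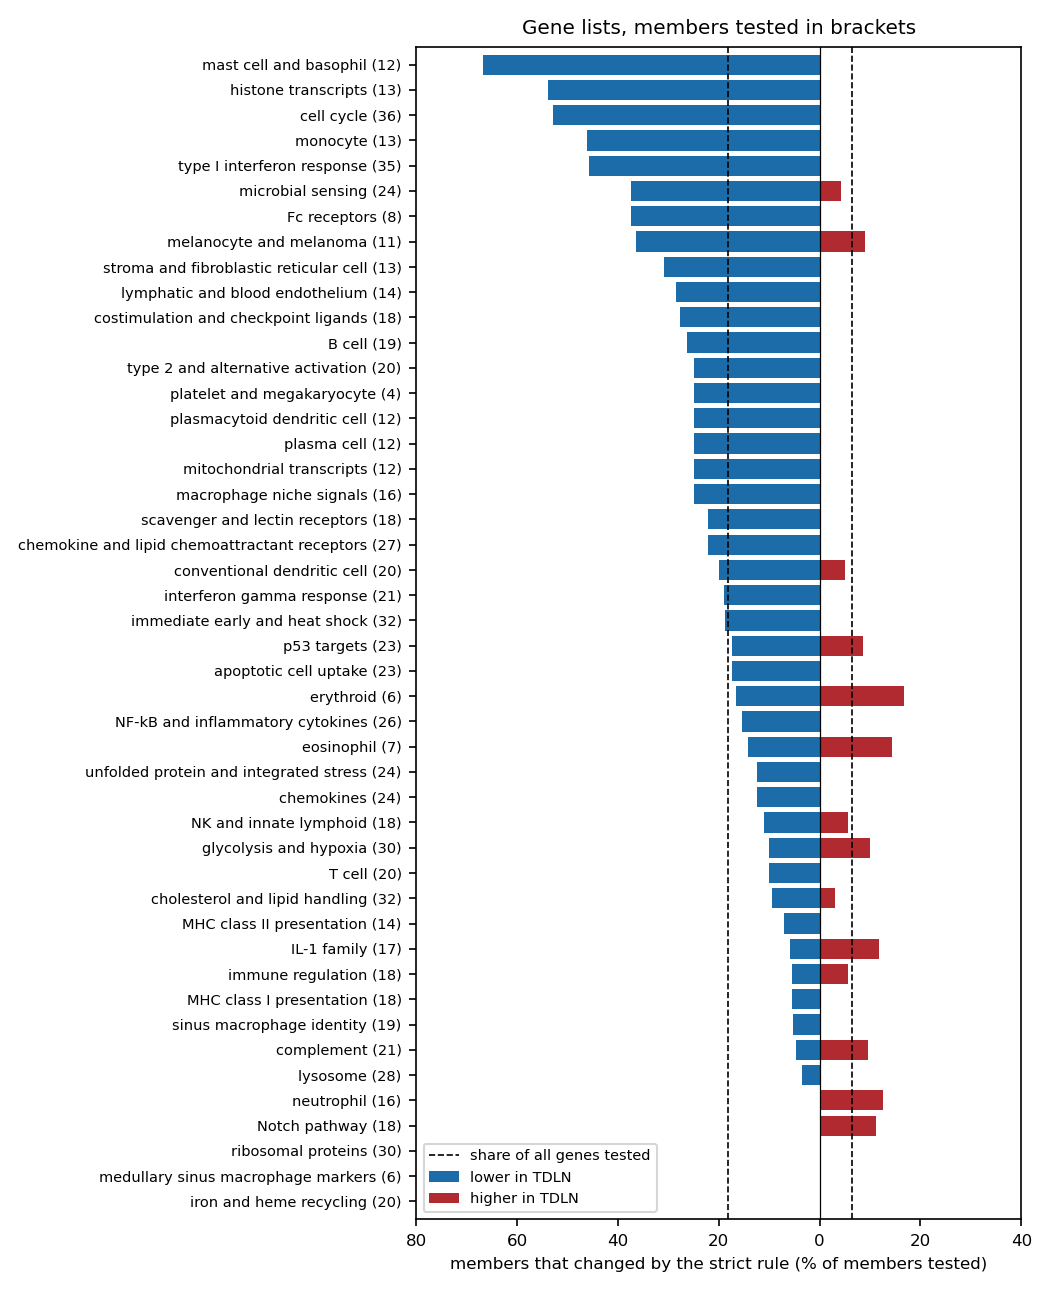
Share of tested members of each of the 46 gene lists that were lower (blue, to the left) or higher (red, to the right) in the TDLN by the strict rule, in percent, with the number of members tested in brackets. Dashed lines mark the shares over all genes tested, 18.2% lower and 6.35% higher. The mast cell, histone, cell cycle, monocyte and interferon lists reach farthest left, and several short lists rest on 1 or 2 genes.

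Markers of other cell types that a node digest could hold were read in the same libraries, and their part in the differences above was not tested. T cell genes summed to 5230.3, 1722 and 5230.3 CPM in the LN and 6605, 6594 and 6604 CPM in the TDLN, and 2 of 20 tested members were lower and 0 higher by the strict rule (3 lower and 1 higher with all 3 LN libraries, 3 and 1 without LN PBS 2). Neutrophil genes summed to 8048, 476 and 7764 CPM in the LN and 13591, 13522 and 13239 CPM in the TDLN. Their higher members by the strict rule were Mmp8 and Retnlg, 2 of 16 tested, with 0 lower (1 lower and 2 higher with all 3 LN libraries, 1 and 2 without LN PBS 2), and the Retnlg call was lost on leaving out LN PBS 3 or any TDLN library (adjusted p 0.0671 to 0.0783). Mmp8, the neutrophil collagenase, was at 34.2, 3.37 and 36.9 against 467, 489 and 447 CPM (4.24 ± 0.73, adjusted p = 0.00145, then 3.72, adjusted p = 0.000102). Defining S100a8 was at 1142, 56.6 and 1085 against 1627, 1761 and 1563 CPM (1.12 ± 0.87, adjusted p = 0.34, then 0.58, adjusted p = 0.485). S100a8 thus did not pass the test, while the summed level was lowest in LN PBS 2 and highest in the TDLN. Monocyte genes summed to 4599.7, 4132 and 4675 against 3407, 3454 and 3408 CPM, and 6 of 13 tested members were lower and 0 higher by the strict rule (7 lower and 0 higher with all 3 LN libraries, 8 and 0 without LN PBS 2). Plac8 was at 546, 185 and 516 CPM in the LN and 103, 98.7 and 94.4 CPM in the TDLN (-2.08 ± 0.34, adjusted p = 0.00118, then -2.42, adjusted p = 1.21e-05). Fn1, fibronectin, was at 35.4, 48.8 and 41.4 against 0.239, 0.125 and 0.27 CPM (-7.54 ± 0.57, adjusted p = 1.01e-05, then -7.40, adjusted p = 2.52e-05). F13a1, the coagulation factor XIII A chain made by monocytes and some macrophages, was at 31.2, 518 and 30.3 against 1.08, 0.75 and 1.48 CPM (-7.44 ± 1.47, adjusted p = 0.00313, then -4.78, adjusted p = 0.00267). Fn1 was even across the LN libraries, Plac8 lowest and F13a1 highest in LN PBS 2. The defining marker Ccr2 was called in neither fit, at 381, 111 and 402 against 262, 301 and 288 CPM (-0.07 ± 0.63, adjusted p = 0.95, then -0.46, adjusted p = 0.591). The other, Ly6c2, was called lower in both fits but short of 2-fold with all 3 LN libraries (-0.87 ± 0.25, adjusted p = 0.0208, then -1.07, adjusted p = 0.00377).

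**Figure D5:**
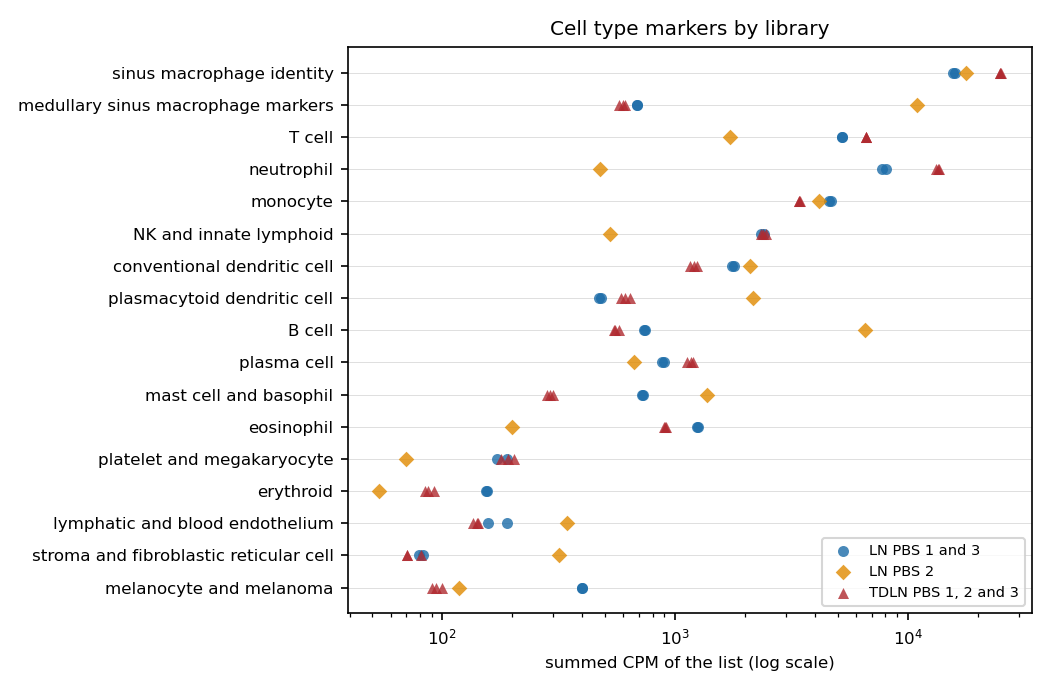
Summed CPM of each cell type marker list on a log axis, by library. Symbols are as in the plot of the widest gaps. LN PBS 2 (orange) lies apart from LN PBS 1 and 3 for most lists, being highest for medullary, B cell and plasmacytoid dendritic cell markers and lowest for neutrophil and T cell markers.

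Mast cell and basophil genes summed to 729, 1370.1 and 718 CPM in the LN and 289.8, 281 and 300.3 CPM in the TDLN, and 8 of 12 tested members were lower and 0 higher by the strict rule (8 lower and 0 higher with all 3 LN libraries, 10 and 1 without LN PBS 2). Of the 8, Cma1 and Tpsb2 had 6 and 11 counts in LN PBS 1 and 3 together, against 2268 and 2668 over all 3 LN libraries, so 6 met the rule with genes at 0 taken at their bound. Both also lost their calls on leaving out any TDLN library (adjusted p 0.0583 to 0.0675). Gata2, a transcription factor of mast cells, basophils and progenitors, was at 35.6, 37.2 and 35.9 CPM in the LN and at 0 counts in the TDLN, at least 95.4-fold lower. Defining Fcer1a, the alpha chain of the IgE receptor, was at 19.7, 19.1 and 15.3 CPM and at 0 counts in the TDLN, at least 47.5-fold lower. Cpa3, the mast cell carboxypeptidase, was at 16.7, 246 and 17.7 against 0.119, 0 and 0.27 CPM (-9.37 ± 1.42, adjusted p = 0.000706, then -6.92, adjusted p = 4.58e-06). Fcer1a and Gata2 were even across the LN libraries, whereas Cpa3 was concentrated in LN PBS 2. Mcpt4, a connective tissue mast cell protease, was at 1.36, 215 and 0.261 CPM and at 0 counts in the TDLN. Almost all of its counts were thus from LN PBS 2, and its call was lost on leaving out any TDLN library (adjusted p 0.0579 to 0.0597). B cell genes summed to 739, 6557 and 742 against 575, 549.8 and 547 CPM, and 5 of 19 tested members were lower and 0 higher by the strict rule (16 lower and 1 higher with all 3 LN libraries, 5 and 1 without LN PBS 2). Cd79a, the B cell receptor signalling chain, was at 62.7, 1057 and 66.4 CPM in the LN and 0.358, 0.25 and 0.135 CPM in the TDLN (-10.53 ± 1.91, adjusted p = 0.00197, then -7.91, adjusted p = 0.00194). Fcmr, the IgM receptor, was at 49.6, 659 and 40.2 against 0, 0.125 and 0 CPM (a count ratio of 6458, interval 1159 to 255119). Its fitted log2 difference was -12.09 ± 2.29, and -9.60 without LN PBS 2. Pax5 was at 1.49, 30.1 and 0.522 CPM in the LN and at 0 counts in the TDLN, and was called with all 3 LN libraries only. LN PBS 2 held most of the B cell RNA, and the summed level of LN PBS 1 and 3 was still above the TDLN. The Pax5 call was also lost on leaving out any TDLN library (adjusted p 0.0630 to 0.0656).

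Conventional dendritic cell genes summed to 1788, 2097 and 1751 CPM in the LN and 1241, 1162 and 1205 CPM in the TDLN, and 4 of 20 tested members were lower and 1 higher by the strict rule (6 lower and 1 higher with all 3 LN libraries, 6 and 1 without LN PBS 2). The higher gene was Flt3, a growth factor receptor of dendritic cells and progenitors, at 14.3, 11.2 and 9.39 against 32.5, 33.5 and 36.9 CPM (1.56 ± 0.31, adjusted p = 0.00323, then 1.54, adjusted p = 0.00772). Plasmacytoid genes summed to 482, 2166 and 471 against 639, 586 and 607 CPM, and 3 of 12 tested members were lower and 0 higher by the strict rule (5 lower and 0 higher with all 3 LN libraries, 3 and 1 without LN PBS 2). The defining markers differed, with Ccr9 at 0 counts in the TDLN. Siglech was at 9.42, 410 and 11.6 against 11.5, 8 and 10.8 CPM and was called in neither fit (-3.83 ± 1.91, adjusted p = 0.136, then -0.05). NK and innate lymphoid genes summed to 2331, 524 and 2419 against 2349, 2449 and 2378 CPM. Of that list 2 of 18 tested members were lower and 1 higher by the strict rule (2 lower and 2 higher with all 3 LN libraries, 4 and 2 without LN PBS 2), and receptors of NK cells differed in direction. Klrb1c (NK1.1) was at 6.07, 0.978 and 6.78 CPM in the LN and 31.8, 27.6 and 26.7 CPM in the TDLN (2.64 ± 0.76, adjusted p = 0.0205, then 2.16, adjusted p = 0.0305). Ncr1 (NKp46) was at 12.3, 0.326 and 8.61 against 0, 0.125 and 0.27 CPM (a count ratio of 53.4, interval 18 to 262). Of melanocyte genes 4 of 11 tested members were lower and 1 higher by the strict rule (6 lower and 1 higher with all 3 LN libraries, 7 and 1 without LN PBS 2). Pmel, a melanosome protein, was at 63, 7.94 and 54.1 against 2.63, 2.25 and 2.7 CPM (-4.04 ± 0.69, adjusted p = 0.0014, then -4.52, adjusted p = 2.22e-05). Mlana was at 39.8, 1.09 and 34.1 against 0.239, 0.125 and 0.54 CPM (-6.32 ± 1.22, adjusted p = 0.00283, then -6.88, adjusted p = 2.9e-05). The lineage transcription factor Sox10 was at 0 counts in the LN and 4.54, 5.25 and 4.18 CPM in the TDLN, at least 12.8-fold higher. Pmel and Mlana were thus higher in the LN, mostly in LN PBS 1 and 3, and Sox10 higher in the TDLN.

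Plasma cell genes summed to 892, 663 and 883 CPM in the LN and 1173, 1127 and 1189 CPM in the TDLN. Most of the TDLN sum was defining Sdc1, at 480, 119 and 473 against 900, 862 and 906 CPM. Sdc1 was called in neither fit (1.32 ± 0.66, adjusted p = 0.137, then 0.91, adjusted p = 0.275). Defining Jchain and Tnfrsf17 were at 0 counts in the TDLN and called lower with all 3 LN libraries only. The list had 3 of 12 members lower and 0 higher (9 lower and 0 higher with all 3 LN libraries, 5 and 1 without LN PBS 2). The lower ones were Prdm1, Fkbp11 and Eaf2, and Prdm1 lost its call without LN PBS 3, TDLN PBS 1 or TDLN PBS 3 (adjusted p 0.0570 to 0.0938). Endothelial genes summed to 190.5, 344 and 157 CPM in the LN and 140.5, 135 and 142 CPM in the TDLN, with 4 of 14 lower and 0 higher (5 lower and 0 higher with all 3 LN libraries, 5 and 0 without LN PBS 2). Among them Cdh5, VE-cadherin, was at 0.991, 12.3 and 0.391 CPM in the LN, short of 2-fold at its bound without LN PBS 2, and at 0 counts in the TDLN, and its call was lost on leaving out TDLN PBS 1 or TDLN PBS 2 (adjusted p 0.0511 and 0.0504). Stromal genes summed to 82.5, 318 and 79.5 against 70.7, 81.1 and 70.5 CPM, with 4 of 13 lower and 0 higher (4 lower and 0 higher with all 3 LN libraries, 4 and 1 without LN PBS 2), and Pdgfrb at 0 counts in the TDLN. Platelet genes had 1 of 4 lower, Itga2b, at 25.4, 20.4 and 34.6 CPM in the LN and 0 counts in the TDLN. Erythroid genes had 1 of 6 lower, Hbb-bt, and 1 higher, Ank1. Eosinophil genes had 1 of 7 lower, Ear2, and 1 higher, Prg3. Prg3 was at 11.3, 47.8 and 12.9 against 60.4, 61.2 and 62.9 CPM (1.35 ± 0.45, adjusted p = 0.0356, then 2.35, adjusted p = 7.17e-06). It lost its call on leaving out LN PBS 1, LN PBS 3 or any TDLN library (adjusted p 0.0673 to 0.107).

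Whether the node difference was the same in the other sinus macrophage type was tested as the difference between MSM and SSM, (TDLN minus LN) in MSM less that in SSM, in a fit of all 24 macrophage libraries, with CPM scaled over them. Of 19671 genes 1676 (8.52%) had a higher node difference in MSM and 3435 (17.5%) a lower one. Without the 4 libraries that resemble the other label (MSM LN PBS 2, SSM LN PBS 2 and 1 cisplatin library of each type), 5352 of 20338 (26.3%) were higher and 6851 (33.7%) lower. Med13l, a subunit of the Mediator kinase module, was at 25.3, 28 and 26.6 CPM in LN MSM and 52.7, 53.8 and 62.1 CPM in TDLN MSM. In SSM it was lower in the TDLN, from 32.5, 31.5 and 36.2 to 7.41, 8.83 and 7.42 CPM. Gypc was at 36.4, 30.9 and 33.9 CPM in LN MSM and at 0 in TDLN MSM, but at 27.4, 36.4 and 25.5 CPM in LN SSM and 50.7, 50 and 46.4 CPM in TDLN SSM. The loss of Gypc counts was thus seen in TDLN MSM and not in TDLN SSM. Usp7 behaved likewise, at 23.2, 20.1 and 21.3 and 0.595, 0.868 and 0.671 CPM in MSM and 25.1, 19.9 and 24.4 and 28.6, 26.4 and 29.6 CPM in SSM.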

How the data were processed

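PolyA RNA of sorted node cells was sequenced from a stranded kit, per the labels. The expected counts used here were made by the authors and deposited as whole numbers; the submitters' processing notes name STAR, RSEM 1.3.0, DESeq2 1.38.3 and GRCm38 without roles. The authors also deposited TPM with decimals dropped, treated as a score and used only to check columns: 24 of 24 count columns matched their own TPM column best. Of 55487 genes, 99.4% had a symbol in GENCODE vM21, which also gave coordinates.

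Genes were kept with edgeR's filterByExpr and scaled with TMM. edgeR 4.0.16 (R 4.3.3) quasi-likelihood tests with Benjamini-Hochberg adjustment (limit 0.05) used the 12 MSM libraries in 4 groups, then 11 without LN PBS 2. A standard error is the size of the log2 difference divided by the square root of its F statistic. For each gene, all groups in the fit share 1 estimate of spread. The common coefficient of variation, a summary over genes, was 0.418, and 0.327 without LN PBS 2. Count ratios, given where a group held 1 to 3 counts, have exact 95% intervals. These and the floor of 3 counts cover counting error only. Replicate pairs differed by more than sampling noise. The scripts were tested on simulated data with 200 changed genes. With all 3 LN libraries, 17% of 2-fold and 72% of 4-fold changes were called. Without LN PBS 2 these shares were 19% and 65%. Unchanged genes called numbered 1 and 3. A gene not called may therefore still differ by 2-fold. Alternatives were DESeq2 1.42.0, its size factors, no filter, other sets of libraries, single libraries left out and a replicate block. Figures used Python 3.11.15 and matplotlib 3.10.9.

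The comparison, the 46 lists and the rules were chosen with earlier results of these data known, so they are not independent evidence. Named genes are the 12 per direction with the widest gap among genes of the strict rule at 4 CPM or more on average, up to 4 members per list and direction, defining markers, Il33 and Il1rl1, and 3 per direction for the difference between MSM and SSM. Predicted, immunoglobulin, T cell receptor and Y-linked genes were not named. Dendritic cell libraries were not used here. Values of 3 genes are not reported here; they stay in list counts and sums. Promoters are from RefSeq (GRCm38.p6), and 11258 of the genes tested had one.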

Additional observations from a re-analysis of the deposited data

Results flagged for a closer look

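For 6 genes the node difference differed between MSM and SSM by a test of the difference itself, edgeR's quasi-likelihood test over 24 libraries with Benjamini-Hochberg adjustment. These are the 3 per direction with the smallest adjusted p. The node difference of Med13l was higher in MSM by 3.15 ± 0.18 on the log2 scale (adjusted p = 4.16e-10, and 3.26 without the 4 libraries that resemble the other label). For Ercc6l2, a helicase-like repair gene, it was higher by 3.50 ± 0.24 (adjusted p = 4.8e-09, and 3.75), and its CPM were 26, 31.7 and 27.8 and 49.7, 50.1 and 51.7 in LN and TDLN MSM but 39.9, 28.7 and 38.3 and 4.65, 6.37 and 5.69 in LN and TDLN SSM. Tha1, a threonine aldolase, differed by 8.37 ± 0.56 (adjusted p = 1.15e-08, and 7.96), with 0 counts in each TDLN SSM library.

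In the other direction the values were -11.90 ± 0.41 for Gypc (adjusted p = 9.57e-12, and -12.07), -6.32 ± 0.26 for Nhlrc2 (adjusted p = 9.57e-12, and -6.22) and -5.17 ± 0.21 for Usp7 (adjusted p = 9.57e-12, and -5.08). Nhlrc2 was at 26.2, 29.3 and 29.2 CPM in LN MSM and 0.357, 0.248 and 0.537 CPM in TDLN MSM, against 28.5, 28.7 and 32.4 and 32.9, 30.8 and 35.6 CPM in SSM. For genes at 0 counts in a group, Tha1 and Gypc, the fitted size depends on the prior count and is no measure of a fold. For these 6 genes both fits gave the same direction, and no cause was tested.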

How the results depend on the processing

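Several single libraries moved counts of higher genes by over 1.5 times: LN PBS 1, 2 and 3, and MSM TDLN CIS 1, a cisplatin library that resembles SSM. With all 3 LN libraries, 1974 higher genes became 2965 without LN PBS 2 and 3020 without MSM TDLN CIS 1. Without LN PBS 2, 2965 higher genes became 5345 with the compared libraries alone and 5329 without MSM TDLN CIS 1. Leaving out each compared library in turn gave 1351 to 2965 higher and 3126 to 5354 lower genes with all 3 LN libraries, 1629 to 2545 and 3286 to 4154 without LN PBS 2 (1629 without LN PBS 1, 1702 higher and 3286 lower without LN PBS 3), and 579 to 1912 and 2323 to 4331 by the strict rule (higher: 579 without LN PBS 3, 608 without LN PBS 1, 1912 without LN PBS 2). The difference between MSM and SSM gave 1297 to 2659 and 2756 to 3973, and 5352 higher and 6851 lower without the 4 libraries. A library left alone in its arm was assumed to vary like the other groups. DESeq2, its size factors, no filter and leaving out the MSM LN CIS group kept each count within 1.5 times, with 1218 higher and 3017 lower by the strict rule in DESeq2. Without a filter the median over all genes was -0.54.

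The labels repeat replicate numbers, and same-numbered TDLN and LN libraries did not deviate together (correlations -0.04, -0.06 and -0.01). This cannot tell whether the numbers pair libraries, because LN PBS 2 stood far from its group and the TDLN libraries lay very close together. With the replicate number as a block, 1533 genes were higher and 3656 lower with all 3 LN libraries, 2378 and 4246 without LN PBS 2, 789 and 2592 by the strict rule, and 1484 and 3107 for the difference between MSM and SSM.

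The alternatives were run for 139 of the genes named, of which 4 changed direction, none of them called with all 3 LN libraries. Leaving out each library in turn, the log2 difference of Il33 ranged from -0.48 (without LN PBS 3; -0.41 without LN PBS 1) to 8.61 without LN PBS 2, a fitted value that depends on the prior count. Siglec1 ranged from -0.40 (without LN PBS 3; -0.32 without LN PBS 1) to 2.99, Mertk from -0.20 (without LN PBS 3; -0.17 without LN PBS 1) to 2.82, and Marco from -9.53 to 0.17, all 3 highest without LN PBS 2. Depth limits genes near 3 counts per library.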
